A study of Mus musculus with 2 samples.

Results

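The proteins of the cornified envelope and the filaggrin-like proteins were followed in the vagina of wild-type (WT) and *Fbln5*-/- mice through 43 probe sets of 36 genes, out of 45101 probe sets and 19324 named genes on the array. The members were every probe set whose annotated gene symbols all began with *Lce* or *Sprr*, or were 1 of *Flg*, *Flg2*, *Hrnr*, *Rptn*, *Crnn*, *Tchh*, *Lor*, *Ivl*, *Cnfn*, *Cdsn* and *Kprp*. They fell into 13 probe sets of late cornified envelope genes of the *Lce1* family, 4 of the *Lce3* family, 12 of the small proline-rich *Sprr* family, 6 of filaggrin-like genes and 8 of other envelope proteins. A further 13 genes of the same families, among them *Crnn*, *Flg2*, *Sprr4* and *Lce6a*, were listed for no probe set and have no signal here. Some of them, such as *Lce1e*, *Crnn* and *Flg2*, enter only the promoter counts below.

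Both groups were female mice of strain C57/Bl6, labelled as 6 months old, whose ovaries had been removed and who then received estradiol at 50 µg/kg/d for 3 d. One group was wild type and the other lacked *Fbln5*, which encodes fibulin-5, a protein needed to assemble elastic fibres. The knockout was not restricted to a cell type. Ovariectomy is dated at 11 d in the labels and at 2 weeks in the series description, and the arrays held no vehicle-treated group. RNA of whole vaginal tissue was measured on 1 Affymetrix mouse array per genotype, and although the methods name 2 animals in each group, no source says whether their RNA was pooled. No value therefore has a replicate, no test between genotypes was made, and each difference below is between 2 arrays. In such tissue, fewer cells of a type and less RNA per cell cannot be told apart.

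The cornified envelope is the protein shell that replaces the plasma membrane of a keratinocyte at the end of its life. Transglutaminases link involucrin, loricrin, the SPRR proteins and, last, the LCE proteins to each other on the inner face of the cell, and filaggrin and its relatives pack the keratin filaments beneath. Most of these genes lie side by side in the epidermal differentiation complex. In the rodent vagina, estrogen drives the stratified epithelium to cornify, so this program is part of the normal response of the tissue to the hormone.

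Signals below are MAS5 intensities after scaling of the arrays to the same median. A probe set was taken as measured when its signal was at least 100 on at least 1 array, and a difference of at least 2-fold was counted. A fold against a signal under 100 is given as a bound, with that signal set to 100. The level of one probe set is not compared with that of another, since probes differ in brightness.

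The targeted gene, *Fbln5*, read 410.5 in WT and 30.5 in *Fbln5*-/-, at least 4.11-fold lower, and its other probe set stayed below 100 in both genotypes. No source places these probes inside or outside the deletion. The 3′ control probe sets of *Gapdh* read 13334 and 13834, but those at its 5′ end read 17269 in WT and 795.0 in *Fbln5*-/-, 21.7-fold lower, and the 5′ set of *Actb* was 3.66-fold lower. The 2 arrays thus differed in the balance of 5′ and 3′ control signals, and the part of this in the ratios of the members was not tested.

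Of the 43 member probe sets, 39 were measured, and 24 of these were higher in *Fbln5*-/- by at least 2-fold. Over all 21512 measured probe sets the share was 6.49%. None of the 39 was at least 2-fold lower, against 8.53% of all measured probe sets. The median log2 ratio of *Fbln5*-/- over WT was 1.49 over the members and 0.10 over all measured probe sets. A ratio above 0 was found for 38 of 39 members and for 12532 of all 21512 measured probe sets. Of the 38 members, *Sprr1a* lay so close to 0 that it passed below it under each of 4 other scalings. Of the 39, 5 were under 100 in WT, 4 of *Lce1* and 1 of *Lor*, so they were kept through the *Fbln5*-/- array and could only read higher, and 4 of them are among the 24. Without them, 20 of 34 members were at least 2-fold higher, against 4.52% of everything that reached 100 on each array, and the median was 1.31. With signals under 100 set to 100, 23 members were at least 2-fold higher and the member median was 1.26. The groups of proteins made up these numbers very unequally, as the plots of signals and of ratios by group show.

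**Figure D1:**
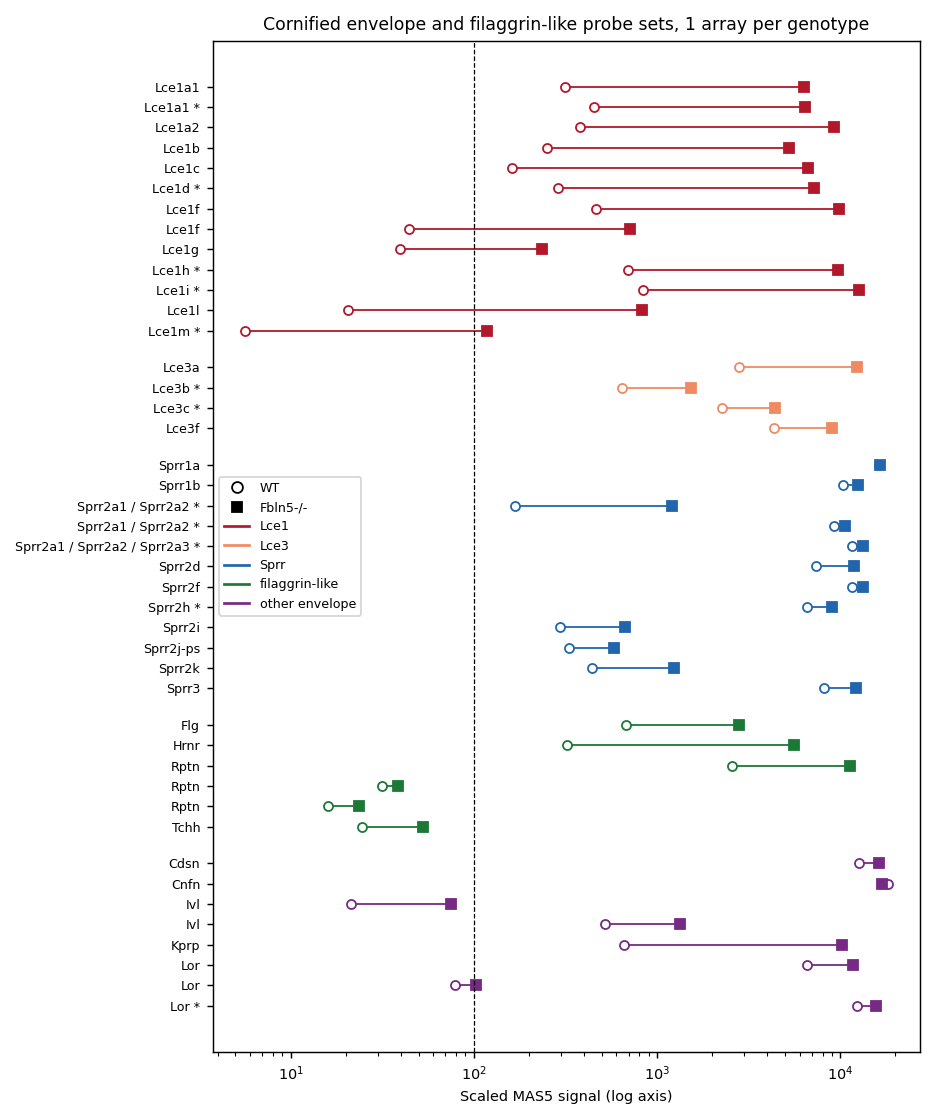
Scaled MAS5 signal of every member probe set on the WT array (open circles) and the *Fbln5*-/- array (filled squares), on a log axis, coloured by protein group. An asterisk marks a probe set that may be shared between genes and the dashed line is the limit of 100. The *Lce1* probe sets all lie at 835.1 or less for WT, while *Cdsn*, *Sprr1a* and *Cnfn* lie at 12714 or more on both arrays.

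The *Lce1* genes stood at the high end. Their proteins are small, rich in cysteine and glycine, and are among the last to be added to the envelope. All 13 *Lce1* probe sets, of 11 genes, were higher in *Fbln5*-/- by at least 2-fold, with log2 ratios from 2.57 to 5.37 and a median of 4.39, or 3.91 with signals under 100 set to 100. Of the 13, 4 were under 100 in WT and so could only read higher. With the floor, 12 of 13 were at least 2-fold higher, and of the sets at 100 or more on both arrays 9 of 9 were. Of the 13, 9 were at least 10-fold higher even with that floor, a size reached by 0.191% of all measured probe sets.

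*Lce1c* gave the largest ratio of the members, with signals of 160.6 in WT and 6640 in *Fbln5*-/-, 41.3-fold higher. *Lce1d* read 289.5 and 7149, 24.7-fold higher, and *Lce1a2* read 380.8 and 9192, 24.1-fold higher. *Lce1b* went from 251.8 to 5264, 20.9-fold higher. In each of these pairs the WT array was low but above the limit of 100, and the other array was above 5000. Ranked by the log2 ratio with the floor, *Lce1c*, *Lce1d*, *Lce1a2*, *Lce1f*, *Lce1b* and *Lce1a1* held places 4 to 9 of all 21512 measured probe sets.

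For *Lce1a1* and *Lce1f* the array holds a pair of probe sets each. Those of *Lce1a1* read 314.0 against 6370 and 455.3 against 6428, which are 20.3-fold and 14.1-fold higher and differ by 0.52 on the log2 scale. The brighter one of *Lce1f* read 466.8 and 9874, 21.2-fold higher, and the dimmer one 44.2 and 708.2, at least 7.08-fold higher. Only the pair of *Lce1a1* was above 100 on both arrays.

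*Lce1h* read 692.7 in WT and 9742 in *Fbln5*-/-, 14.1-fold higher. *Lce1i* read 835.1 and 12591, 15.1-fold higher. The 3 remaining genes were under 100 in WT. *Lce1l* read 20.5 and 832.5, at least 8.33-fold higher, *Lce1g* read 39.7 and 235.3, at least 2.35-fold higher, and *Lce1m* read 5.64 and 118.1, at least 1.18-fold higher. These 3, and the dimmer *Lce1f* set, passed the limit of 100 through the *Fbln5*-/- array alone, so a higher value there was the only direction open to them.

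The *Lce1* genes are close copies, and 5 of the 13 probe sets carry a suffix by which the maker marks probes that also match other sequences: those of *Lce1d*, *Lce1h*, *Lce1i*, *Lce1m* and 1 of *Lce1a1*. Their median log2 ratio was 3.91. The 8 without such a mark had a median of 4.39, and all 8 were at least 2-fold higher, though 3 of them were under 100 in WT. The other 5, at 100 or more on both arrays, were all at least 2-fold higher. Probe sequences were not used here, and the part of signal shared between paralogs in these values was not tested.

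Some of the *Lce1* genes share a stretch of sequence before their start sites. The 100 bases before the annotated start are given here for 6 *Lce1* genes, and for *Sprr1b* and *Sprr2f* of the *Sprr* family. They are from RefSeq on the build GRCm38.p6, 5′ to 3′ on the strand of the gene, and capitals mark the longest run found in at least 50% of the *Lce1* promoters.
Lce1a1, chr3:92648308-92648407, minus strand: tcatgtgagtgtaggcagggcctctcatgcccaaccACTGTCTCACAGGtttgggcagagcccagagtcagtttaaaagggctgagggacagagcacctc
Lce1b, chr3:92656927-92657026, minus strand: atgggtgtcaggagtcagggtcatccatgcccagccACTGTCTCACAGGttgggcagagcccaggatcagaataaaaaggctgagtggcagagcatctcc
Lce1d, chr3:92687211-92687310, minus strand: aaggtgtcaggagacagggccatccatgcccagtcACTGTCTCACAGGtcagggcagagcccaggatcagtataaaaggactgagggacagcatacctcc
Lce1h, chr3:92765066-92765165, minus strand: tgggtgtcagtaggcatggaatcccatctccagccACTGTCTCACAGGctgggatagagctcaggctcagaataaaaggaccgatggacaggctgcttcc
Lce1i, chr3:92778900-92778999, minus strand: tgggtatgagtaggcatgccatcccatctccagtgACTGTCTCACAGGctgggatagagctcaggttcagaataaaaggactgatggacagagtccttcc
Lce1c, chr3:92679147-92679246, plus strand: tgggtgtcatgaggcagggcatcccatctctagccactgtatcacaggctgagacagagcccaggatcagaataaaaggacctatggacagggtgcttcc
Sprr1b, chr3:92438780-92438879, minus strand: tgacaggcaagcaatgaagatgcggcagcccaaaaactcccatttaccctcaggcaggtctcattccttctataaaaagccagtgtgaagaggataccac
Sprr2f, chr3:92365087-92365186, plus strand: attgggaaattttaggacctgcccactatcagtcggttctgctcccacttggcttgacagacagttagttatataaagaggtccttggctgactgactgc

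The run ACTGTCTCACAGG, searched on both strands, was in 7 of 13 *Lce1* promoters (*Lce1a1*, *Lce1a2*, *Lce1b*, *Lce1d*, *Lce1e*, *Lce1h* and *Lce1i*) and in 7 of 32851 promoters in all, or 0.0213%, so every window that held it belonged to an *Lce1* gene. The run was chosen for being shared by these promoters, so finding it in them and not elsewhere is no test. In the 5 windows above that hold it, it began 64 or 65 bases before the start. *Lce1c*, with the largest ratio, did not have the exact run, nor did *Lce1g*, *Lce1l* and *Lce1m*, and *Lce1f* had no window among the 13. The letters ATAAAA, of the kind found in core promoters, were in 12 of 13 *Lce1* and 6 of 6 *Lce3* promoters, in 6 of 14 *Sprr* promoters and in 7.07% of all. Only these exact letters were counted, so close forms, such as TATAAAG in the *Sprr2f* window above, were missed. The letters TGANTCA, which take in the AP-1 consensus, were in no *Lce1*, *Lce3* or *Sprr* window, in 3 of 6 filaggrin-like windows and in 2.73% of all. The 3 were those of *Crnn*, *Flg2* and *Rptn*, of which only *Rptn* has a probe set. The *Lce1* windows were 34.5% identical at equal offset in the median pair, with a range of 14% to 90% over 78 pairs. These matches describe letters in short windows of related genes and are no measure of binding. Their link to the ratios was not tested.

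The *Lce3* genes encode a second branch of the late envelope family, known in skin for their rise after injury. Of their 4 probe sets, 3 were at least 2-fold higher in *Fbln5*-/-, and the median log2 ratio was 1.16. Under 3 of 4 other scalings, all but the 75th percentile, the count was 2 of 4. *Lce3a* read 2790 and 12297, 4.41-fold higher, and *Lce3b* read 641.1 and 1539, 2.40-fold higher. *Lce3f*, at 4362 and 9051, lay just past the threshold at 2.08-fold, and *Lce3c*, at 2270 and 4393, just short of it at 1.94-fold. The sets of *Lce3b* and *Lce3c* are marked as possibly shared. All 4 *Lce3* sets were above 100 on both arrays, and their ratios, of 0.95 to 2.14 on the log2 scale, lay below each of the 13 *Lce1* ratios as measured, though with the floor of 100 *Lce1g* (1.23) and *Lce1m* (0.24) were bounded within or below their range.

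**Figure D2:**
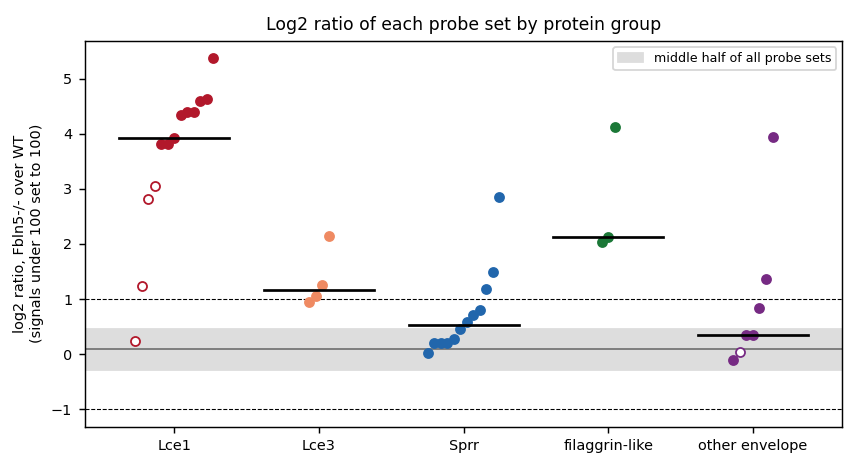
Log2 ratio of *Fbln5*-/- over WT for each measured member probe set, by protein group, with signals under 100 set to 100 (open points are such bounds). Thick bars are group medians, from 3.91 for *Lce1* to 0.35 for other envelope proteins, dashed lines mark 2-fold, and the grey band and line give the quartiles and the median, 0.10, of all measured probe sets.

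The *Sprr* genes had a lower median. They encode small proline-rich proteins that act as cross-bridges between larger envelope proteins, and 3 of their 12 probe sets were at least 2-fold higher, with a median log2 ratio of 0.53. This went with WT signal. None of the 8 *Sprr* sets at 5000 or more in WT was at least 2-fold higher (median 0.24), a level at which 0.345% of all probe sets were. Of the 4 *Sprr* sets under 5000 in WT, 3 were higher, with a median of 1.34. The 9 *Sprr2* sets had a median of 0.70 and the 3 sets of *Sprr1* and *Sprr3* a median of 0.27. *Sprr1a* read 16188 in WT and 16510 in *Fbln5*-/-, a log2 ratio of 0.03. *Sprr1b* read 10391 and 12494, a log2 ratio of 0.27. *Sprr3* read 8118 and 12223, a log2 ratio of 0.59. None of these reached 2-fold.

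Within *Sprr2*, the ratios ranged widely. *Sprr2f* read 11594 and 13319 (log2 ratio 0.20), *Sprr2h* 6566 and 9038 (0.46) and *Sprr2d* 7322 and 11907 (0.70), all short of 2-fold. Larger ratios came from *Sprr2k*, at 442.1 and 1238, 2.80-fold higher, *Sprr2i*, at 294.4 and 671.9, 2.28-fold higher, and the pseudogene *Sprr2j-ps*, at 332.5 and 579.9, 1.74-fold higher.

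A further 3 probe sets could not be given to a single *Sprr2a* gene, and they did not tell the same story. One annotated to *Sprr2a1* and *Sprr2a2* read 167.2 and 1206, 7.21-fold higher. Another annotated to the same pair read 9229 and 10569, a log2 ratio of 0.20. The third, which covers *Sprr2a3* as well, read 11569 and 13332, again 0.20. The 7.21-fold value thus belongs to 1 dim probe set and was not repeated by a brighter set of the same genes. The set of *Sprr2h* is also marked as possibly shared.

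The filaggrin-like genes encode long S100-fused proteins made of repeats, stored in granules and released as the cell cornifies. Of 6 probe sets, 3 were measured, 1 each for *Flg*, *Hrnr* and *Rptn*, and all 3 were at least 2-fold higher in *Fbln5*-/-, with a median log2 ratio of 2.13. *Hrnr*, hornerin, read 321.1 and 5558, 17.3-fold higher. *Rptn*, repetin, read 2574 and 11253, 4.37-fold higher. *Flg*, filaggrin, whose breakdown products hold water in the outer layers, read 678.9 and 2782, 4.10-fold higher. All 3 were above 100 on both arrays. The other 2 sets of *Rptn* and the one of *Tchh*, trichohyalin of the hair follicle sheath, at 24.5 and 52.8, were under 100 on both arrays and give no fold.

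Among the other envelope proteins, 2 of 7 measured probe sets were at least 2-fold higher, and the median log2 ratio was 0.38. *Kprp*, a proline-rich keratinocyte protein, read 662.0 and 10183, 15.4-fold higher. *Ivl*, involucrin, an early scaffold of the envelope, read 521.2 and 1341, 2.57-fold higher, while its second set was under 100 on both arrays.

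*Lor*, loricrin, the main bulk protein of the envelope, had 3 measured sets and none reached 2-fold. They read 12399 against 15714 (log2 ratio 0.34, marked as possibly shared), 6562 against 11758 (0.84) and 78.6 against 102.5, at least 1.02-fold higher and kept through the *Fbln5*-/- array alone. *Cdsn*, corneodesmosin, which holds cornified cells together, read 12714 and 16242, a log2 ratio of 0.35. *Cnfn*, cornifelin, read 18259 and 16950, a log2 ratio of −0.11, the one member with a lower signal on the *Fbln5*-/- array.

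The members were also split by their WT signal. The 12 with at least 5000 on the WT array, 8 of *Sprr* and 4 of *Lor*, *Cdsn* and *Cnfn*, had log2 ratios from −0.11 to 0.84 with a median of 0.30, and none was at least 2-fold higher. Among all 1448 probe sets at that level in WT, 5, or 0.345%, were at least 2-fold higher, so this share was low in general. Of the 27 measured members with a WT signal under 5000, 24 were at least 2-fold higher, against 6.93% of all measured probe sets below that level. Of the 22 among these members that were at 100 or more on both arrays, 20 were. The 6.93% also takes in sets that reached 100 on 1 array only. Over sets of any WT level at 100 or more on both arrays, the share was 4.52%. The WT signal is also the denominator of the ratio, so the split and the ratio are not independent. The highest signals anywhere on the arrays were 22121 and 22886, which leaves a bright probe set less room to read higher, and the part of that in the split was not tested.

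Members were a large part of the extreme increases of the whole array. With signals under 100 set to 100, 41 probe sets were higher in *Fbln5*-/- by at least 10-fold, and 11 of them, or 26.8%, were members: 9 *Lce1* sets, *Hrnr* and *Kprp*. They made up 28.2% of the 39 measured members, against 0.191% of all measured probe sets. No *Lce3* or *Sprr* set was among them. Of the 9 *Lce1* sets, 4 are marked as possibly shared and a pair belongs to *Lce1a1*, so the 11 are not independent of each other.

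By position, 47 of the 49 member genes in the gene table lay in 1 stretch of 70 genes on chromosome 3, from *Lor* to *Tchh*, and *Cdsn* and *Cnfn* lay elsewhere. Along this stretch, shown in the plot of ratios in chromosome order, the *Sprr* block ran from 0.03 to 1.49, with *Sprr2i* and *Sprr2k* past 2-fold. The *Lce1* block that follows it, with *Kprp* inside it, ran from the bound of 1.23 of *Lce1g* to 5.37, the *Lce3* block from 0.95 to 2.14, and *Flg*, *Hrnr* and *Rptn* formed the far end. *Lce1m* lies apart from the other *Lce1* genes, past *Lce3*. Its bound of 0.24 was the lowest of the family, but its ratio as measured, from a WT signal of 5.64, was 4.39.

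**Figure D3:**
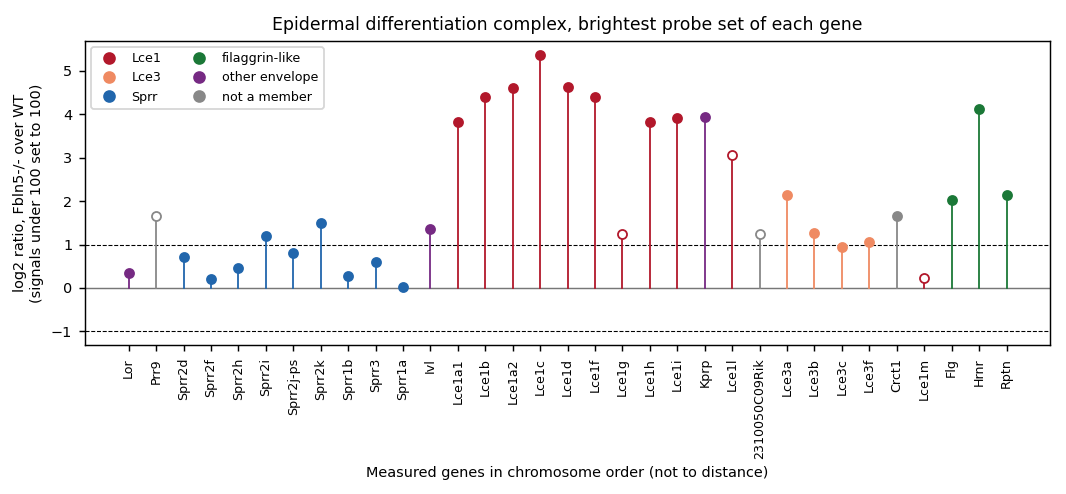
Log2 ratio of *Fbln5*-/- over WT, signals under 100 set to 100, for the brightest measured probe set of each gene from *Lor* to *Rptn*, in chromosome order and not to distance. Colours give the protein group, grey marks genes that are not members, open points are bounds, dashed lines mark 2-fold, and probe sets annotated to several *Sprr2a* genes are left out. The peak is *Lce1c* at 5.37 and the lowest point *Sprr1a* at 0.03.

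The 3 measured genes in the stretch that are not members were at least 2-fold higher. *Lelp1*, at 38.4 and 14.4, and *Smcp*, at 31.6 and 6.79, lie there as well, but were under 100 on both arrays and give no fold. *Crct1*, a cysteine-rich gene next to *Lce3*, read 5365 and 16866, a log2 ratio of 1.65. *Prr9*, beside *Lor*, read 87.5 and 316.9, a bound of 1.66, and *2310050C09Rik* read 7.69 and 235.9, a bound of 1.24, so both passed the limit through the *Fbln5*-/- array. On the outer side of *Lor*, 2 of the nearest 10 measured genes were at least 2-fold higher, *S100a8* at 1.87 and *S100a9* at 1.54, and the median was 0.07. Beyond *Tchh*, 2 of 10 were, *Them4* at 1.15 and *Them5* at 1.42, and the median was 0.17. Over all genes by their brightest measured set, 7.21% were at least 2-fold higher.

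The enzymes and structures that work with the envelope had list medians from 0.10 to 0.62. Over all genes by their brightest measured set, 7.21% were at least 2-fold higher and 4.78% at least 2-fold lower. The counts of the lists below stand beside these shares. Of 11 measured genes of the transglutaminases and their envelope partners, 1 was at least 2-fold higher and none lower, with a median of 0.23. That one was *Tgm3*, a transglutaminase of late cornification, at 2372 and 7318, a log2 ratio of 1.63, though its second probe set gave 0.82. *Tgm1*, the membrane-bound enzyme that fixes the envelope in place, read 7123 and 4161, a log2 ratio of −0.78. *Dmkn* (0.27) and *Anxa1* (0.23), the brightest of the list, were close on both arrays.

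Of 9 measured genes of filaggrin processing, 3 were at least 2-fold higher, against 7.21% of all genes, and the median was 0.35. *Klk7*, a protease of desquamation, read 184.7 and 1501, 8.12-fold higher. The other 2, named after their values were seen, were *Asprv1*, the protease that cuts profilaggrin, at 1718 and 7549, 4.40-fold higher, and *Casp14*, at 816.7 and 2162, 2.65-fold higher with 0.67 on the log2 scale from its second set. *Padi3*, which converts arginine to citrulline in these proteins, read 256.2 and 173.1, a log2 ratio of −0.57. *Blmh* (0.35) and *Spink5* (0.21), the brightest, did not reach 2-fold.

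Desmosome and junction genes had 10 measured members with none at least 2-fold higher and 1 lower, *Cldn4*, a tight junction claudin, at 3282 and 1005, and a median of 0.10. These are the brightest sets, and other sets of 2 genes, named after their values were seen, read much lower in *Fbln5*-/-: one of *Dsp* read 3573 and 15.2, against 13416 and 14193 for its brightest, and one of *Dsc3* read 529.3 and 112.7, against 6785 and 6033. The enzymes of the envelope lipids had 8, with 2 higher, 1 lower and a median of 0.62. Over all genes 7.21% were higher and 4.78% lower. The higher ones were *Aloxe3*, a lipoxygenase, at 2.31-fold and *Ugcg*, whose other measured sets gave 0.23 and −0.47, and the lower one was *Smpd1* at −1.21. Of 13 transcription factors of cornification, by their brightest sets, none was at least 2-fold higher, with a median of 0.16. *Prdm1* had the largest ratio, 0.93, and *Klf4* was bright on both arrays at 0.07. As measured 1 was lower, *Pou2f3*, at 121.1 in WT and under 100 in *Fbln5*-/-, but none was with the floor. Another set of *Cebpb*, named after its value was seen, read 1570 and 126.8, against 4687 and 4502 for its brightest.

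**Figure D4:**
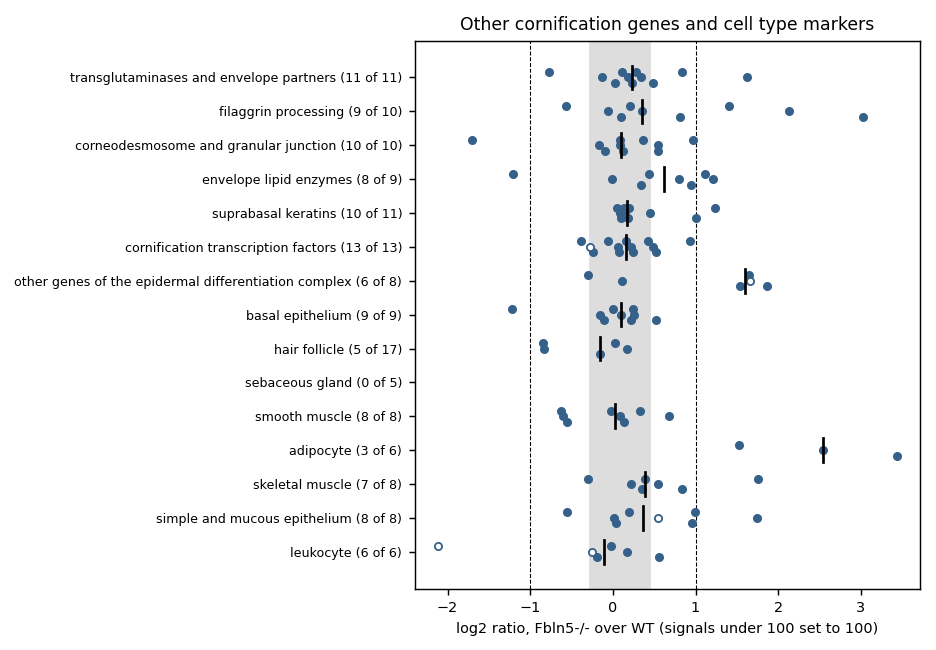
Log2 ratio of *Fbln5*-/- over WT, signals under 100 set to 100, for the brightest probe set of each measured gene of 15 other lists, with the number measured out of those with a probe set. Vertical bars are list medians, the grey band gives the quartiles of all measured probe sets, −0.28 to 0.45, dashed lines mark 2-fold and open points are bounds. The genes of the epidermal differentiation complex (1.60) and the adipocyte markers (2.54) have the highest medians.

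The tissue had the markers of a stratified epithelium on both arrays. The suprabasal keratins *Krt10*, at 17581 and 18130, and *Krt13*, at 20007 and 21205, were close, and 2 of 10 measured keratins of this list were at least 2-fold higher, *Krt80* at 2.36-fold and *Krt78*, named after its value was seen, at 2.01-fold. The share over all genes by their brightest set was 7.21%. The median of the 10 keratins was 0.17. Basal markers, such as *Krt5* at 16108 and 16065, had a median of 0.10 over 9 genes, with none higher and 1 lower, *Lamb3*, at −1.22. These are again the brightest sets. That of *Trp63*, named after its values were seen, read 6105 and 7118. Its other sets read 285.7 and 12.9, 290.6 and 104.6, and 83.9 and 129.5. Of the 10 keratins, *Krt78*, *Krt80* and *Krt77* had a WT signal under 5000, and the others were at 11128 or more, a range in which few probe sets of the array reached 2-fold.

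Markers of skin appendages were measured in part. Of 17 hair follicle genes with a probe set, 12 were under 100 on both arrays, all keratins except *Lef1*: *Krt25*, *Krt27*, *Krt28*, *Krt31*, *Krt33a*, *Krt34*, *Krt35*, *Krt71*, *Krt72*, *Krt73* and *Krt86*. The 5 that were measured were the hair keratins *Krt33b*, at 472.3 and 265.1, and *Krt81*, at 273.6 and 278.3, with *S100a3*, at 2981 and 1658, *Foxn1*, at 1207 and 1085, and *Msx2*, at 1173 and 1320. None of them was at least 2-fold different, and their median was −0.15. The summed signal of the list was 6423 in WT and 4895 in *Fbln5*-/-, a sum over unlike probes in which *S100a3* weighs most. All 5 sebaceous gland genes were under 100 on both arrays, with sums of 202.4 and 323.8. *Krt2*, a keratin of the upper epidermis named after its value was seen, read 20.6 and 21.0.

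Markers of other cell types were counted beside the 7.21% of all genes that were at least 2-fold higher and the 4.78% lower, by brightest set. All 3 measured adipocyte genes of 6 with a probe set were at least 2-fold higher in *Fbln5*-/-: *Adipoq* at 104.1 and 1131, *Lpl* at 644.7 and 3741 and *Fabp4* at 1981 and 5705. The list summed to 2792 and 10774, and *Lep*, *Cidec* and *Pparg* were under 100 on both. Skeletal muscle genes had 1 of 7 higher, *Myh1*, and a median of 0.39, with sums of 5919 and 8746, and simple and mucous epithelium had 2 of 8 higher, *Agr2* and *Muc4*, or *Agr2* alone with the floor, and *Muc5b* lowest at −0.56, with sums of 17933 and 21842. Smooth muscle had none of 8 and a median of 0.03, and leukocyte genes had none higher and 1 of 6 lower, *Itgam*, with *Csf1r* highest at 0.56 and a median of −0.11. The part of differing tissue composition in the ratios of the envelope genes was not tested.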

How the data were processed

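RNA from the vagina of 1 WT and 1 *Fbln5*-/- sample was measured on Affymetrix arrays. Linear signal intensities of 45101 probe sets were deposited by the authors, who used MAS5 per the submitters' processing notes. The methods normalize each chip to its 50th percentile, so the arrays were brought to the same median, with factors of 0.973 and 1.03 on deposited medians of 71.8 and 67.9. Those reaching 100 on 1 or both arrays (21512, without 64 control sets) were kept. The methods also use present and marginal calls, which were not used here. The 1 signal of 0, in WT, was replaced by 0.1. With 1 array per genotype no test was made, and the number of arrays limits the precision.

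Names came from the platform annotation, which lists 34958 with 1 gene symbol, 932 with several and 9211 with none. Identifiers of 35582 matched the RefSeq gene table of GRCm38.p6, used for current names and gene order. The same source gave 32851 promoter windows of 300 bases, of which the 100 upstream bases were searched. A probe set with several genes or a suffix _x_at, _s_at or _a_at was marked as possibly shared.

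The members and all 15 lists, with 154 genes, were chosen with earlier results of these data known. All members could be named. From each pathway list up to 4 genes could be named, those of the largest ratio in each direction and the brightest. Genes outside this rule are named as chosen after their values were seen, by their position beside the members, or, for markers of other cell types, to account for those measured and those under 100. List genes were represented by their brightest probe set. Steps were tested on simulated data. The alternatives changed the scaling (none, 75th percentile, quantile, median ratio of 1), the filter, the treatment of low signals (floor of 100, or 32 added), the choice of probe sets and the threshold (3-fold). The tools were Python 3.11.15 with pandas 2.3.3, numpy 2.4.6 and scipy 1.17.1, and plots were drawn in matplotlib 3.10.9.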

Additional observations from a re-analysis of the deposited data

How the results depend on the processing

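The 18 counts and medians of the members and their 5 groups were each computed under up to 13 alternatives. Of the values so obtained, 200 moved by less than 0.1 on the log2 scale or at most 1.5-fold in count and 28 by more, and no median changed sign. The 200 take in the counts at least 2-fold lower, which were 0 under every setting. The member median moved by more under 8 alternatives and by less under 4. That of other envelope proteins moved by more under 6 and by less under 6. The member count stayed between 18 and 26 higher and at 0 lower. The member median was 1.68 on the deposited scale, 1.65 with a median ratio of 1, 1.36 with no filter, 1.31 with 100 or more on both arrays, 1.26 with the floor of 100, and 1.76 with the brightest set per gene, without suffixed sets or without sets of several genes. For *Lce1* it was 4.28 with a median ratio of 1, 3.91 with the floor and 4.04 with 32 added, and without suffixed sets 8 of 8 sets were higher. The *Lce3* median was 1.05 with a median ratio of 1 and 1.60 without suffixed sets, and that of *Sprr* 0.42 and 0.70. The filaggrin-like median was 2.02 under quantile normalization or a median ratio of 1 and 1.57 with no filter. That of other envelope proteins was 0.52 on the deposited scale, 0.49 with a median ratio of 1, 0.61 with no filter or without suffixed sets, and 0.60 with 100 on both arrays or 200 on 1. At 3-fold, 1 set each of *Lce3*, *Sprr* and other envelope proteins was higher. Over all probe sets, 1396 higher and 1835 lower became 5495 and 6224 with no filter, 845 and 939 with 100 on both arrays, 861 and 571 with the brightest set per gene, 1063 and 1141 without suffixed sets, and 499 and 927 at 3-fold. A median ratio of 1 moved the median of all by −0.12, and *Sprr1a* lay at −0.08 there. Leaving out a replicate was not possible with 1 array per genotype. No paired analysis was possible because each genotype has 1 array and no test was made.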
